A study of Homo sapiens with 6 samples.

Results

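The 39 genes described here encode the Eph receptors and their ephrin ligands, the Slit proteins and their Robo receptors, and the netrins with their receptors of the UNC5, DCC and neogenin families. They were taken by symbol from the 60671 named genes of the count matrix. The members comprise 14 Eph receptors, 8 ephrins, 3 Slits, 4 Robo receptors, 4 netrins, 4 UNC5 receptors, DCC and NEO1, which encodes neogenin. The choice followed the symbols and used no measured value, but it was made with earlier results of these data known. Expression was measured by RNA sequencing in 6 libraries, 2 for each of 3 days. Day 0 was BJ cells, an established line of human foreskin fibroblasts of wild-type genotype, grown in DMEM with fetal bovine serum and labelled fibroblast cells. Day 2 cells, labelled FiN cells and induced neuron cells, had been grown on poly-D-lysine and given neuronal induction medium that held 10 µM forskolin, a plant diterpene that activates adenylyl cyclase. Day 5 cells, with the same label, had been moved from that medium on day 2 to neuronal maturation medium with 10 µM forskolin. Medium, forskolin, time in culture and, as far as described, the poly-D-lysine surface changed together after day 0 and cannot be told apart. All libraries came from 1 cell line. The treatment label reads reprogramming for all 6 libraries, day 0 included.

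These families guide growing axons and migrating cells by attraction and repulsion. Eph receptors are receptor tyrosine kinases that bind ephrins on a neighbouring cell. Ephrin-A proteins are held in the membrane by a lipid anchor, ephrin-B proteins cross it, and both can signal back into the cell that carries them. Slit proteins are secreted and act on Robo receptors, most often as repellents. Netrins attract through DCC or neogenin and repel when UNC5 receptors take part. Fibroblasts use the same systems in contact repulsion, cell sorting and migration, so a guidance gene is not a marker of a neuron.

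Levels are given as CPM, the usual depth-scaled count, after TMM factors had adjusted each library's size for its composition. The libraries held 17599457 to 27941895 counts, the day 5 libraries being the shallowest, and 3 counts there stood for 0.164 to 0.18 CPM against 0.103 to 0.125 CPM in the other libraries. A gene counts as called at an adjusted p under 0.05 in edgeR's quasi-likelihood test, with p-values adjusted by Benjamini-Hochberg across 16327 tested genes. Log2 fold changes are given with their standard error, and adjusted p-values below come from that test. Whether a day's libraries came from separate cultures is not stated, so the p-values reflect no more than how these libraries varied, and that variation may be technical. Scaling by library totals in place of TMM factors gave the median gene a shift of -0.18 log2 units for day 2 and of -0.21 for day 5, each against day 0, and changes are stated relative to TMM scaling. Of all calls against day 0, 50.0% were higher on day 2 and 51.2% on day 5 with TMM factors, and 38.1% and 39% with library totals.

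The markers of the labelled cell types moved in both directions. All 12 fibroblast markers had enough counts to be tested, and on day 5 against day 0, 5 were called higher and 7 lower. Collagens COL1A2 (5053 to 14326 CPM) and COL3A1 (2543 to 6441 CPM), with PDGFRA, PDGFRB and FBLN1, rose, while S100A4 (39.7 to 2.36 CPM), DCN (1044 to 202 CPM), THY1 (427 to 104 CPM), VIM (4851 to 1466 CPM), LUM, FAP and COL1A1 fell. Their sum was 18932 to 19283 CPM on day 0, 16207 to 16433 CPM on day 2 and 30476 to 30896 CPM on day 5. It was carried mostly by the collagens, with VIM on days 0 and 2 and PDGFRA (2641 CPM) on day 5. Of 15 neuronal markers 7 could be tested, and on day 5 SNAP25 was higher than on day 0 (5.89 to 18.3 CPM, edgeR adjusted p = 6.9e-09), 4 were lower and 2 were not called. The neuronal sum, mostly TUBB3 (226, 139.8 and 87.4 CPM), was 263 to 272, 162 to 168 and 115 to 119 CPM, and STMN2 and ELAVL4 had no counts in any library. Of 10 endothelial markers 5 could be tested, with sums of 76.6 to 77.4, 89.6 to 89.8 and 144 to 147 CPM. On day 5 against day 0, 2 were called higher and 1 lower, and 2 were not called, among them VWF (1.63 to 0.832 CPM). KDR (4.16, 8.21 and 61.8 CPM) and CLDN5 (0.123, 1.76 and 8.06 CPM) rose, ESAM fell by day 5, TEK had 70.4, 78.1 and 74.5 CPM, PECAM1 and CDH5 were at most 0.461 and 0.0197 CPM on any day's mean, and EMCN had no counts. Smooth muscle and pericyte markers, 7 of 8 tested, summed to 626 to 647, 456 to 475 and 870.2 to 873 CPM. RGS5 (6.69 to 425 CPM) and MYH11 rose by day 5, and CNN1 (36.7 to 1.77 CPM), ACTA2, CSPG4 and NOTCH3 fell. The glial sum was highest on day 5 (8.48 to 9.28, 13 to 13.1 and 19 to 21.9 CPM, 4 of 8 tested, 3 of them higher, AQP4 at 0). The epithelial sum was lowest there (55.5 to 56.9, 45.5 to 46.4 and 25.5 to 27.9 CPM, 3 of 8 tested, 2 of them lower, KRT5 and KRT14 at 0), as was the immune sum (96.7 to 98.4, 132 to 134 and 45.7 to 49.7 CPM, 2 of 8 tested, both lower, CD3E at 0). The part of other cell types in the results was not tested. In these bulk libraries fewer cells expressing a gene and less RNA per cell cannot be told apart.

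Of the 39 genes, 26 passed the filter on low counts. On day 2 against day 0, 5 of these 26 rose and 14 fell, with a median log2 fold change of -0.55, where 66.8% of all tested genes were called, 33.4% rising and 33.4% falling, and their median was 0.00. On day 5 against day 0, 12 rose and 12 fell (median 0.16), against 35.8% and 34.1% of all tested genes (69.9% called, median 0.04). On day 5 against day 2, 14 rose and 7 fell (median 0.69), against 32.1% and 33.7% of all tested genes (65.8% called, median 0.01). Genes that pass the filter only through the day on which they are high are bound to differ, so these counts describe the list and support no statement about it. When changes above 2-fold were tested as such (glmTreat), 1 gene was higher and 9 lower on day 2 against day 0, where 6.99% and 5.54% of all tested genes were. On day 5 against day 0 the numbers were 8 higher and 7 lower (9.74% and 10.3% of all), and on day 5 against day 2 they were 7 higher and 1 lower (6.41% and 7.96% of all). The 3 comparisons share libraries.

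**Figure D1:**
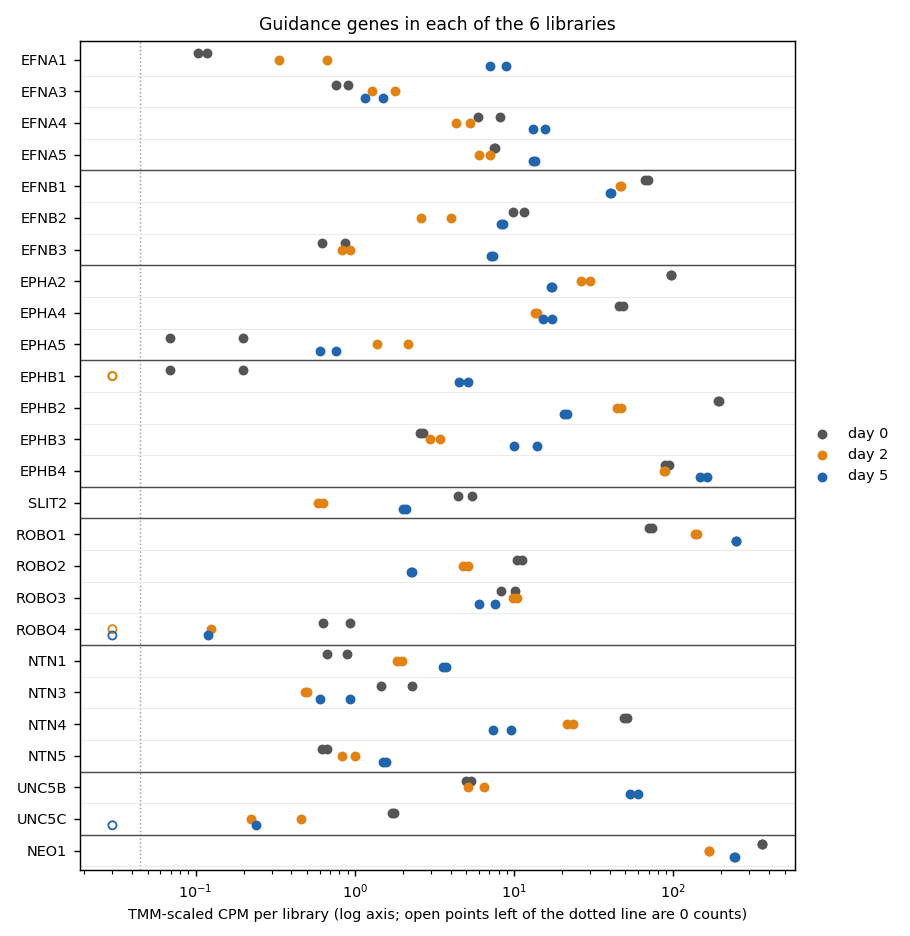
Level of each of the 26 tested guidance genes in every library, in TMM-scaled CPM on a log axis. Each point is 1 library coloured by day, open points left of the dotted line are libraries with 0 counts, and horizontal lines separate the families. The points of 1 day mostly lie close together, and EPHA2, EPHB2 and NTN4 step down over the 3 days while ROBO1 steps up.

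Per length of gene model, NEO1 was the highest of the 39 genes on day 0, with 51.1 CPM per kb, followed by EPHA2 (24.6), EPHB4 (21), EFNB1 (20.6), EPHB2 (17.8), EPHA4 (14), NTN4 (13.8) and ROBO1 (10.4). On day 2 NEO1 stood at 23.6 CPM per kb, with EPHB4 at 20.3 and ROBO1 at 20.2. On day 5 ROBO1 (35.8), EPHB4 (35.6) and NEO1 (34.2) led. The mean levels of those leading genes on day 5 lay close together, and EFNA4 came next with 13.7 CPM per kb. EPHA2 and EPHB2 were down to 4.34 and 1.94 CPM per kb by then.

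Per kb of gene model, the Eph receptors changed from a mixture of 4 receptors to a set led by EPHB4. EPHB2 and EPHA2 fell on each later day, EPHA4 fell by day 2, and EPHB4 was called higher on day 5 and not on day 2. EPHB3, low at the start, rose by day 5. EPHB1 also had its highest counts on day 5, but it passed the filter on low counts only through that day. The 14 receptors together had 78.4 ± 1.4 CPM per kb on day 0, 36.7 ± 0.296 on day 2 and 51 ± 2.61 on day 5 (SD, n = 2). With 2 libraries a day an exact permutation test of such a sum cannot go below p = 0.333, so the sums are given without a test. EPHB4 held 26.5% and 27.1% of the sum on day 0, 56% and 54.3% on day 2, and 68.9% and 70.6% on day 5. EPHA2 went from 31.9% and 31% to 18.3% and 20.5% and then to 8.85% and 8.2%. EPHB2 went from 22.8% and 22.7% to 11.9% and 11% and then to 3.86% and 3.76%. The shares of each of these 3 receptors did not overlap between any 2 days. The order on day 0 depended on the division by length. By counts alone EPHB2 led there with 44.7% and 44.6%, against 20.9% and 21.4% for EPHB4. On day 5 EPHB4 led by counts too, with 67.4% and 68.8%.

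EPHB2 (ENSG00000133216, chromosome 1 at 22710839 to 22921500 of GRCh38, plus strand) encodes a receptor for ephrin-B proteins that acts in axon crossing and synapse formation. It measured 191 and 195 CPM on day 0, 46.9 and 44.1 CPM on day 2, and 20.5 and 21.5 CPM on day 5. Every library of an earlier day was above every library of a later one. The log2 fold change was -2.09 ± 0.04 on day 2 (edgeR adjusted p = 8.7e-17) and -3.20 ± 0.05 on day 5 against day 0 (edgeR adjusted p = 1.5e-18), a level 9.18-fold lower. Between day 2 and day 5 it fell by 1.11 ± 0.06 on the log2 scale (edgeR adjusted p = 5.5e-11).

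EPHA2 (ENSG00000142627, chromosome 1 at 16124337 to 16156087, minus strand) encodes a receptor for ephrin-A proteins that is common in epithelia and tumours. The libraries had 97.4 and 97.1 CPM on day 0, 26.3 and 29.9 CPM on day 2, and 17.2 and 17.1 CPM on day 5. The days did not overlap. The gene was 3.45-fold lower on day 2 (-1.79 ± 0.06 on the log2 scale, edgeR adjusted p = 3.2e-14) and 5.68-fold lower on day 5 against day 0 (-2.51 ± 0.07, edgeR adjusted p = 1.4e-15), and it also fell from day 2 to day 5 (-0.72 ± 0.08).

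EPHA4 (ENSG00000116106, chromosome 2 at 221418027 to 221574202, minus strand) encodes a receptor that binds ephrins of both classes and repels motor and corticospinal axons. It had 45.8 and 48.4 CPM on day 0, 13.6 and 14 CPM on day 2, and 17.2 and 15.1 CPM on day 5. The drop lay between day 0 and day 2, where the log2 fold change was -1.77 ± 0.08 (edgeR adjusted p = 2.4e-12). On day 5 the gene was still 2.92-fold lower than on day 0. Its rise from day 2 to day 5 was small (log2 fold change 0.23 ± 0.09, edgeR adjusted p = 0.0455) and was lost with DESeq2 (adjusted p = 0.109), RLE factors (0.0598), library totals (0.0653), no count filter (0.15), only the days compared in the fit (0.0796) and, with adjusted p from 0.0688 to 0.349, without day 0 replicate 1, day 0 replicate 2, day 2 replicate 1, day 2 replicate 2 or day 5 replicate 1. Over all alternatives its adjusted p ran from 0.0221 to 0.349.

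EPHB4 (ENSG00000196411, chromosome 7 at 100802565 to 100827521, minus strand) encodes the receptor of ephrin-B2, best known from the vessel wall, where it marks veins. Its level was 89.2 and 93.5 CPM on day 0, 89.1 and 87.4 CPM on day 2, and 147 and 162 CPM on day 5. Both day 5 libraries stood above the other 4, while days 0 and 2 nearly touched. On day 2 the gene was not called (log2 fold change -0.05 ± 0.05, edgeR adjusted p = 0.353), although it was called lower with library totals (-0.24, adjusted p = 3.0e-04, the alternatives spanning 3.0e-04 to 0.778). It rose 1.7-fold on day 5 against day 0 (0.76 ± 0.05, edgeR adjusted p = 1.4e-10) and 1.76-fold against day 2. EPHB4 overlaps SLC12A9 on the opposite strand, which had 1111 and 1253.57 counts on day 0 and 496 and 510 counts on day 5. Since the strand setting of the counting is not given in the sources used here, reads of such pairs cannot be told apart.

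The promoters of EPHA2, EPHB2 and EPHB4 are shown so that their sequence can be read beside their change, since forskolin acts through cAMP and the cAMP response element TGACGTCA is the site of CREB. Each run below is the 250 bases before the start annotated in the RefSeq table of GRCh38.p14, 5′ to 3′ on the gene's strand. It is in lower case with any TGACGTCA in capitals. For EPHA2 the RefSeq start is 16156069, which lies inside the GENCODE position given above, ending at 16156087. Its distances to the start therefore depend on the annotation.
EPHA2, chr1:16156070-16156319, minus strand: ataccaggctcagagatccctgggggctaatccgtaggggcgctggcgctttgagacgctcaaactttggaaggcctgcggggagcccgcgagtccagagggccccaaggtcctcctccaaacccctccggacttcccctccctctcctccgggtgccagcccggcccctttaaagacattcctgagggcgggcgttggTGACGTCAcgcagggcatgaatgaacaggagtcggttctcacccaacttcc
EPHB2, chr1:22710588-22710837, plus strand: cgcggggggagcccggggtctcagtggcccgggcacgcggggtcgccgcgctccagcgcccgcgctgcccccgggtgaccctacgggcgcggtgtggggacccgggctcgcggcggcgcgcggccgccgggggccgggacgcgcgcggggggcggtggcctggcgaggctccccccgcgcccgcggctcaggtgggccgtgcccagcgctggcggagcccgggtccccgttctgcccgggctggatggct
EPHB4, chr7:100827524-100827773, minus strand: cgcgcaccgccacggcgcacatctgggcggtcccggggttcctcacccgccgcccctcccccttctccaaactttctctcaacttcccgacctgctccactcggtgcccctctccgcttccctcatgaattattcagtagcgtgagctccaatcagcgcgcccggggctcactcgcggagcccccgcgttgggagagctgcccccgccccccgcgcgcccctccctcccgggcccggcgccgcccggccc
Windows of 33 of the 39 genes were searched, 44 in all, because some genes have several starts. TGACGTCA, searched on both strands, occurred in 1 of these windows, that of EPHA2, 51 to 44 bases before the RefSeq start. Of all 35116 promoter windows 1.65% held it. Its core TGACG, which also counts the full site, occurred in 11 of the 44 windows, of EPHA1, EPHA2, EPHA4, EPHA8, EPHB3, NTN4, ROBO3, SLIT1, SLIT3 and UNC5C, and in 21.2% of all windows. EPHA2, with the full site, fell at both later days. EPHB2 fell and EPHB4 rose by day 5, and neither motif was found in their windows. A match describes the letters only, and no match says nothing of the factor.

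EPHB1, EPHB3 and EPHA5 had low levels on day 0. EPHB1 (chromosome 3 at 134597801 to 135260467), a receptor for ephrin-B proteins that steers retinal axons, had 5 and 2 counts on day 0, none in either day 2 library, and 86 and 82 counts on day 5, the last being 5.16 and 4.48 CPM. The day 5 libraries therefore stood apart from the other 4. With the day 2 counts set to a floor of 3 over both libraries, it was 81.4-fold higher on day 5 than on day 2. Against day 0 its log2 fold change on day 5 was 5.16 ± 0.49 (edgeR adjusted p = 9.4e-08). This log2 fold change was 6.01 without day 0 replicate 1 and 4.56 without day 0 replicate 2. EPHB1 passed the filter on low counts only through day 5, where it was high. Its difference from the earlier days was thus bound to appear, and the p-value is no support for a rise. With the same floor the fall of EPHB1 from day 0 to day 2 was 2.18-fold. The edgeR fit used no such floor and called the gene lower (log2 fold change -4.65 ± 1.52, edgeR adjusted p = 0.0133). That call was lost without day 0 replicate 1 or day 2 replicate 2. Both floor ratios leave out the counting error of the other day.

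EPHB3, a relative of EPHB2 that shares its ligands, went from 2.68 and 2.58 CPM on day 0 to 3.41 and 2.98 CPM on day 2 and 10.0 and 13.9 CPM on day 5. Its log2 fold change was 0.28 ± 0.21 on day 2, not called, and 2.19 ± 0.19 on day 5 against day 0 (edgeR adjusted p = 1.9e-08). EPHA5, an ephrin-A receptor found mostly in the nervous system, was the only Eph receptor called higher on day 2, the days' libraries having 5 and 2, 33 and 58, and 10 and 14 counts. These are 0.197 and 0.0687 CPM on day 0, 1.37 and 2.16 CPM on day 2, and 0.6 and 0.764 CPM on day 5, so the gene peaked on day 2 at a low level. The log2 fold change was 3.72 ± 0.58 on day 2 (edgeR adjusted p = 2.4e-05). Leaving out day 0 replicate 1 made it 4.58, and leaving out day 0 replicate 2 made it 3.13. On day 5 against day 0 it was 2.36 ± 0.66 (edgeR adjusted p = 0.00465), with 3.21 without day 0 replicate 1, and 1.75 without day 0 replicate 2, which lost the call (adjusted p = 0.0543, range 5.6e-04 to 0.0543). The decrease of EPHA5 from day 2 to day 5 (-1.37 ± 0.48, edgeR adjusted p = 0.0199) lost its call without day 2 replicate 2 (adjusted p = 0.213), day 5 replicate 1 (0.0982) or day 5 replicate 2 (0.0506), the alternatives spanning 0.00506 to 0.213.

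The other 7 Eph receptors were too low to be tested. EPHA8 had no counts in any library and EPHA6 0 or 1. EPHA3 had 0 to 4 counts, EPHA10 0 to 5 and EPHB6, a receptor without kinase activity, 0 to 7. EPHA1 had 0 to 10 counts and lies across ZYX, an abundant gene of the opposite strand. EPHA7, a receptor of the developing cortex, had 6 and 12 counts on day 0, none on day 2 and 2 and 3 on day 5. With the day 2 counts set to a floor of 3 over both libraries, it was 5.61-fold lower there than on day 0. This ratio leaves out the counting error of day 0.

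Per kb of gene model, the ephrins moved from a predominance of EFNB1 to a mixture with more ephrin-A. EFNB1 fell on each later day, EFNA4 and EFNA5 rose after day 2, and EFNA1 and EFNB3 went from under 1 CPM in every day 0 library to over 7 CPM in every day 5 library. The 8 ephrins summed to 31.6 ± 2.23 CPM per kb on day 0, 22 ± 0.301 on day 2 and 38.3 ± 1.19 on day 5 (SD, n = 2). EFNB1 held 67.1% and 63.2% of the sum on day 0, 65.1% and 63.3% on day 2, and 31.6% and 32.5% on day 5. EFNA4 went from 18.7% and 23.4% on day 0 to 38.1% and 33.4% on day 5, and EFNA1 from 0.254% and 0.2% to 11.5% and 15.3%. By counts, without division by length, EFNB1 went from 72.5% and 70.6% on day 0 to 43.2% and 43.6% on day 5. It thus still led by counts on day 5, where EFNA4 had 16.6% and 14.3%.

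EFNA1 (ENSG00000169242, chromosome 1 at 155127460 to 155134857, plus strand), the preferred ligand of EPHA2 and first found as a gene induced by TNF, had 3 and 3 counts on day 0, 16 and 9 on day 2, and 117 and 163 on day 5. In CPM these were 0.118 and 0.103, 0.666 and 0.335, and 7.02 and 8.9, with no overlap between days. The day 5 level was 69-fold above day 0 (6.11 ± 0.41 on the log2 scale, edgeR adjusted p = 5.8e-10) and 16-fold above day 2 (edgeR adjusted p = 1.1e-08). EFNA1 would not have passed the filter on low counts without day 5, so these p-values are no support for a rise. Its rise by day 2 (2.11 ± 0.58, edgeR adjusted p = 0.00428) was not called without day 2 replicate 1 (adjusted p = 0.0628, range 8.0e-04 to 0.0628).

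EFNA4, EFNA3 and EFNA1 lie side by side on chromosome 1, EFNA4 at 155063731 to 155069553 and EFNA3 at 155078872 to 155087538. EFNA4 had 5.92 and 8.18 CPM on day 0, 4.29 and 5.28 CPM on day 2 and 15.7 and 13.2 CPM on day 5, so only day 5 stood apart from the earlier days by a clear margin. It was called lower on day 2 (-0.56 ± 0.18, edgeR adjusted p = 0.00987), but not without day 0 replicate 2 (adjusted p = 0.206) or day 2 replicate 1 (0.0875), the alternatives spanning 0.00118 to 0.206. On day 5 it was 2.03-fold higher than on day 0 (1.02 ± 0.16, edgeR adjusted p = 2.6e-05). EFNA3 stayed low, with 0.907 and 0.756, 1.29 and 1.79, and 1.5 and 1.15 CPM. Its call on day 2 (0.89 ± 0.38, edgeR adjusted p = 0.0469) was lost with DESeq2 (adjusted p = 0.125), RLE factors (0.0509), library totals (0.108), no count filter (0.0548) and without day 0 replicate 1 (0.0826), day 0 replicate 2 (0.187), day 2 replicate 2 (0.296) or day 5 replicate 1 (0.0502), the alternatives spanning 0.0241 to 0.296. EFNA3 and EFNA4 both overlap a gene on the same strand, AL691442.1, which took 6.02 to 15.63 counts per library, and their counts are estimates with decimals, so the split among the 3 genes is uncertain.

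EFNA5, a ligand of many EphA receptors and of EPHB2, was at 7.46 and 7.63 CPM on day 0, 7.04 and 5.99 CPM on day 2 and 13.6 and 13.2 CPM on day 5. It was not called on day 2 (-0.21 ± 0.13, edgeR adjusted p = 0.171), but lower with library totals (-0.40, adjusted p = 0.0147, range 0.0147 to 0.626). On day 5 it was 1.77-fold above day 0 (0.83 ± 0.13, edgeR adjusted p = 2.3e-05). EFNA2 had at most 2 counts in a library and was not tested.

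EFNB1 (ENSG00000090776, chromosome X at 68828997 to 68842147, plus strand), the gene mutated in craniofrontonasal syndrome, had 66.6 and 69.3 CPM on day 0, 46.9 and 46.4 CPM on day 2, and 40.8 and 40.2 CPM on day 5. Each day lay below the one before, and the steps were small beside those of EPHB2. The log2 fold change was -0.54 ± 0.05 on day 2 (edgeR adjusted p = 4.1e-08) and -0.75 ± 0.05 on day 5 against day 0 (edgeR adjusted p = 1.4e-09). EFNB2, the ligand of EPHB4 and a marker of arteries, had 9.86 and 11.5 CPM on day 0, 4.04 and 2.6 CPM on day 2, and 8.52 and 8.24 CPM on day 5. It fell 3.24-fold by day 2 (edgeR adjusted p = 2.2e-07) and rose 2.54-fold from day 2 to day 5 (edgeR adjusted p = 8.0e-06). Its day 5 level was not called against day 0 (-0.35 ± 0.16, edgeR adjusted p = 0.0673), but was called lower with library totals (adjusted p = 0.00641), with no count filter (0.0252), with RLE factors (0.0468), when only the days compared were fitted (0.0219), without day 2 replicate 1 (0.0303) and without day 2 replicate 2 (0.0296), the alternatives spanning 0.00641 to 0.326. EFNB3, a ligand of EPHA4 at the midline of the spinal cord, went from 0.868 and 0.619 CPM on day 0 and 0.833 and 0.93 CPM on day 2 to 7.14 and 7.42 CPM on day 5. The earlier days overlapped and day 5 was 9.81-fold above day 0 (3.29 ± 0.28, edgeR adjusted p = 1.0e-08).

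**Figure D2:**
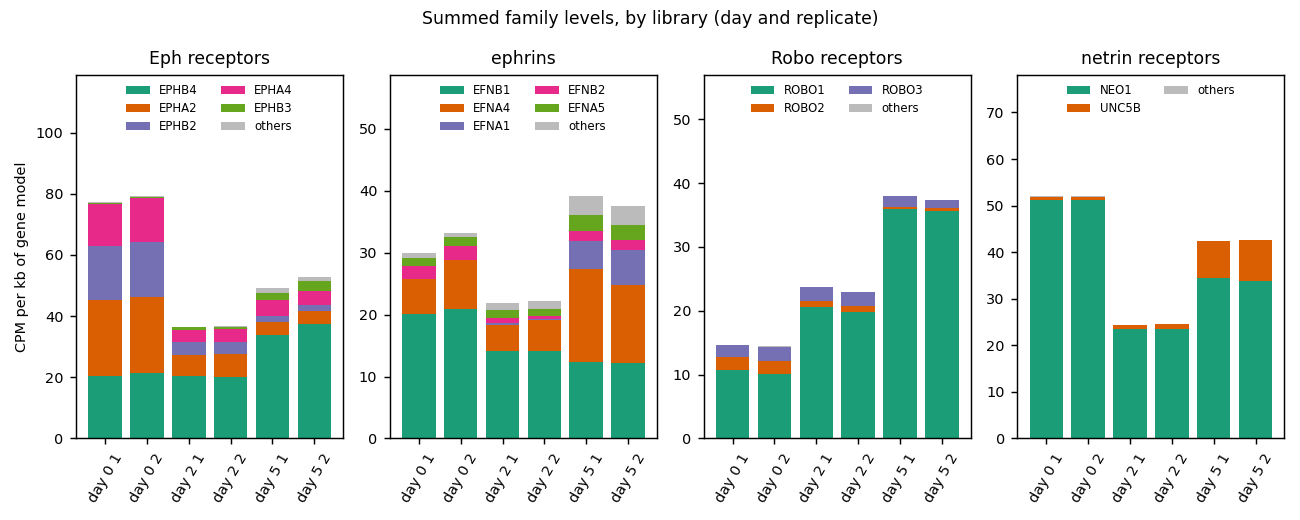
Summed level of 4 families in each library, in CPM per kb of gene model, stacked by gene, with the remaining members of a family as others. Bars are single libraries named by day and replicate; the Eph receptor sum was lowest on day 2 while EPHB4 took a larger part of it on each later day, and the Robo sum rose through ROBO1.

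Among the Robo receptors, ROBO1 rose on each later day while ROBO2 fell, and their ligand SLIT2 fell by day 2 and partly came back. ROBO1 (ENSG00000169855, chromosome 3 at 78597240 to 79767815, minus strand), the most widely expressed Slit receptor, had 74 and 70.4 CPM on day 0, 142 and 137 CPM on day 2, and 248 and 247 CPM on day 5. No libraries of different days overlapped. The log2 fold change was 0.95 ± 0.04 on day 2 (edgeR adjusted p = 5.4e-13), 1.78 ± 0.04 on day 5 against day 0 (edgeR adjusted p = 4.0e-17) and 0.82 ± 0.04 from day 2 to day 5 (edgeR adjusted p = 1.2e-12). Its share of the summed Robo level per kb went from 72.6% and 69.9% on day 0 to 86.7% and 86.1% on day 2 and 94.4% and 95.3% on day 5.

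ROBO2, which lies next to ROBO1 on chromosome 3 at 75906695 to 77649964 and acts with it in axon repulsion, had 11.2 and 10.5 CPM on day 0, 5.16 and 4.76 CPM on day 2, and 2.28 and 2.24 CPM on day 5. These steps were the reverse of those of ROBO1, with log2 fold changes of -1.12 ± 0.14 on day 2 (edgeR adjusted p = 2.3e-06) and -2.26 ± 0.17 on day 5 against day 0 (edgeR adjusted p = 2.6e-09). ROBO3, a receptor that lets commissural axons cross the midline, had 8.32 and 10.1 CPM on day 0, 9.87 and 10.5 CPM on day 2, and 7.62 and 6.06 CPM on day 5. Days 0 and 2 overlapped, and day 5 lay lower (-0.44 ± 0.15 against day 0, edgeR adjusted p = 0.0167). That call was lost without day 0 replicate 2 (adjusted p = 0.165) or day 5 replicate 2 (0.174), the alternatives spanning 0.00117 to 0.174, and the call against day 2 (-0.58 ± 0.15, edgeR adjusted p = 0.0029) without day 5 replicate 2 (adjusted p = 0.0502, range 1.9e-04 to 0.0502). ROBO4, the Robo of endothelial cells, had 16 and 27 counts on day 0, 3 and 0 on day 2, and 2 and 0 on day 5. It was called lower on both later days, with a ratio of day 0 to day 2 of 13.4 (95% counting interval 4.29 to 67.5). ROBO4 passed the filter on low counts only through day 0, where it was high, so these calls are no support for a fall.

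SLIT2 (ENSG00000145147, chromosome 4 at 20253260 to 20620561, plus strand) was the only Slit with enough counts to be tested. It had 4.42 and 5.46 CPM on day 0, 0.583 and 0.633 CPM on day 2 (14 and 17 counts), and 2.1 and 2.02 CPM on day 5. The 3 days were separate, with the lowest level on day 2. The gene was 8.07-fold lower on day 2 than on day 0 (log2 fold change -3.01 ± 0.28, edgeR adjusted p = 4.2e-08), rose 3.36-fold from day 2 to day 5 (edgeR adjusted p = 1.1e-04) and was 2.4-fold below day 0 on day 5 (edgeR adjusted p = 2.0e-04). SLIT1 had 0 to 7 counts in a library and SLIT3 0 or 1.

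The netrins fell as a sum, from 15.1 ± 0.701 CPM per kb on day 0 to 7.24 ± 0.263 on day 2 and 4.14 ± 0.288 on day 5 (SD, n = 2), and this followed NTN4. NTN4 (ENSG00000074527, chromosome 12 at 95657807 to 95791152, minus strand) encodes a netrin of basement membranes that binds laminin. It had 48.9 and 51 CPM on day 0, 23.3 and 21.6 CPM on day 2, and 9.54 and 7.42 CPM on day 5, each day below the one before. The log2 fold change was -1.16 ± 0.08 on day 2 (edgeR adjusted p = 7.5e-10) and -2.57 ± 0.10 on day 5 against day 0 (edgeR adjusted p = 2.0e-13), a level 5.92-fold lower. NTN4 held 92.2% and 90.2% of the netrin sum on day 0 and 60.6% and 52.1% on day 5.

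NTN1 (chromosome 17 at 9021542 to 9244000), the classical attractant of commissural axons, moved the other way at a low level. It had 0.671 and 0.894 CPM on day 0, 1.83 and 1.97 CPM on day 2, and 3.72 and 3.6 CPM on day 5 (62 and 66 counts). It was 2.41-fold higher on day 2 (1.27 ± 0.32, edgeR adjusted p = 0.00198) and 4.63-fold higher on day 5 than on day 0 (2.21 ± 0.31, edgeR adjusted p = 6.4e-06). NTN3 fell from 1.46 and 2.3 CPM on day 0 to 0.5 and 0.484 CPM on day 2 (-1.93 ± 0.43, edgeR adjusted p = 7.4e-04) and had 0.6 and 0.928 CPM on day 5. Its call on day 5 against day 0 (-1.29 ± 0.42, edgeR adjusted p = 0.0125) was lost without day 0 replicate 2 (adjusted p = 0.169) or day 5 replicate 1 (0.0873), the alternatives spanning 0.00313 to 0.169. NTN5 had 0.671 and 0.619 CPM on day 0, 0.833 and 1 CPM on day 2, and 1.5 and 1.58 CPM on day 5. It was called higher on day 5 against day 0 (1.25 ± 0.42, edgeR adjusted p = 0.0144), but not without day 0 replicate 2 (adjusted p = 0.0686) or day 5 replicate 2 (0.0626), the alternatives spanning 0.0129 to 0.0686. NTN5 overlaps SEC1P on the opposite strand, which went from 3 and 2 counts on day 0 to 11 and 28 on day 5.

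NEO1 led the netrin receptors on every day and UNC5B joined it on day 5. NEO1 (ENSG00000067141, chromosome 15 at 73051710 to 73305206, plus strand) encodes a receptor of netrins and of the repulsive guidance molecules, and also a co-receptor of bone morphogenetic proteins. The libraries had 363 and 363 CPM on day 0, 168 and 168 CPM on day 2, and 246 and 240.4 CPM on day 5. The days were separate, with a dip on day 2. It fell 2.16-fold by day 2 (log2 fold change -1.11 ± 0.03, edgeR adjusted p = 6.4e-16), rose 1.45-fold from day 2 to day 5 (0.53 ± 0.03, edgeR adjusted p = 3.0e-11) and stayed 1.49-fold below day 0 (edgeR adjusted p = 3.4e-12).

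UNC5B (ENSG00000107731, chromosome 10 at 71212570 to 71302864, plus strand) encodes a netrin receptor that mediates repulsion, is prominent in blood vessels and can trigger cell death when no ligand is bound. It had 5.01 and 5.4 CPM on day 0, 5.16 and 6.44 CPM on day 2, and 53.4 and 60.2 CPM on day 5. Days 0 and 2 overlapped (0.16 ± 0.14, edgeR adjusted p = 0.332), and day 5 was 10.9-fold above day 0 (3.45 ± 0.11, edgeR adjusted p = 1.5e-14) and 9.75-fold above day 2 (3.29 ± 0.11, edgeR adjusted p = 3.8e-14). Per kb, UNC5B made up 1.41% and 1.51% of the netrin receptor sum on day 0, 3.09% and 3.83% on day 2, and 18.4% and 20.6% on day 5. The summed endothelial markers given above were also highest on day 5. Of the 5 tested, KDR (61.8 CPM) and CLDN5 (8.06 CPM) were called higher than on day 0. ESAM was called lower, TEK and VWF were not called, and CDH5 was at 0 on day 5. The part of these markers in the UNC5B, EPHB4 and EFNA1 levels was not tested. The antisense neighbour UNC5B-AS1 had at most 8 counts in a library.

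UNC5C went from 1.7 and 1.75 CPM on day 0 to 0.458 and 0.223 CPM on day 2 and 0.24 and 0 CPM on day 5, the last being 4 and 0 counts. It fell 5.06-fold by day 2 (-2.34 ± 0.57, edgeR adjusted p = 0.0016). On day 5 against day 0 its log2 fold change was -3.85 ± 0.74 (edgeR adjusted p = 1.8e-04), with -2.82 without day 5 replicate 2 and -8.42 without day 5 replicate 1, a fit that leaves only the library with 0 counts. UNC5C would not have passed the filter on low counts without day 0, so the p-values against day 0 are no support for a fall. Between days 2 and 5 it was not called (-1.51 ± 0.90, edgeR adjusted p = 0.153), but was lower without day 5 replicate 1 (adjusted p = 0.0148, range 0.0148 to 0.656). DCC, the attractive netrin receptor of commissural axons, had 0 counts in the day 0 and day 2 libraries and 1 and 2 on day 5, and UNC5A and UNC5D had 1 count each, in day 0 replicate 2. A count of 0 on day 0 allows a DCC level of up to 0.118 and 0.103 CPM in the respective libraries. These limits cover counting error only.

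**Figure D3:**
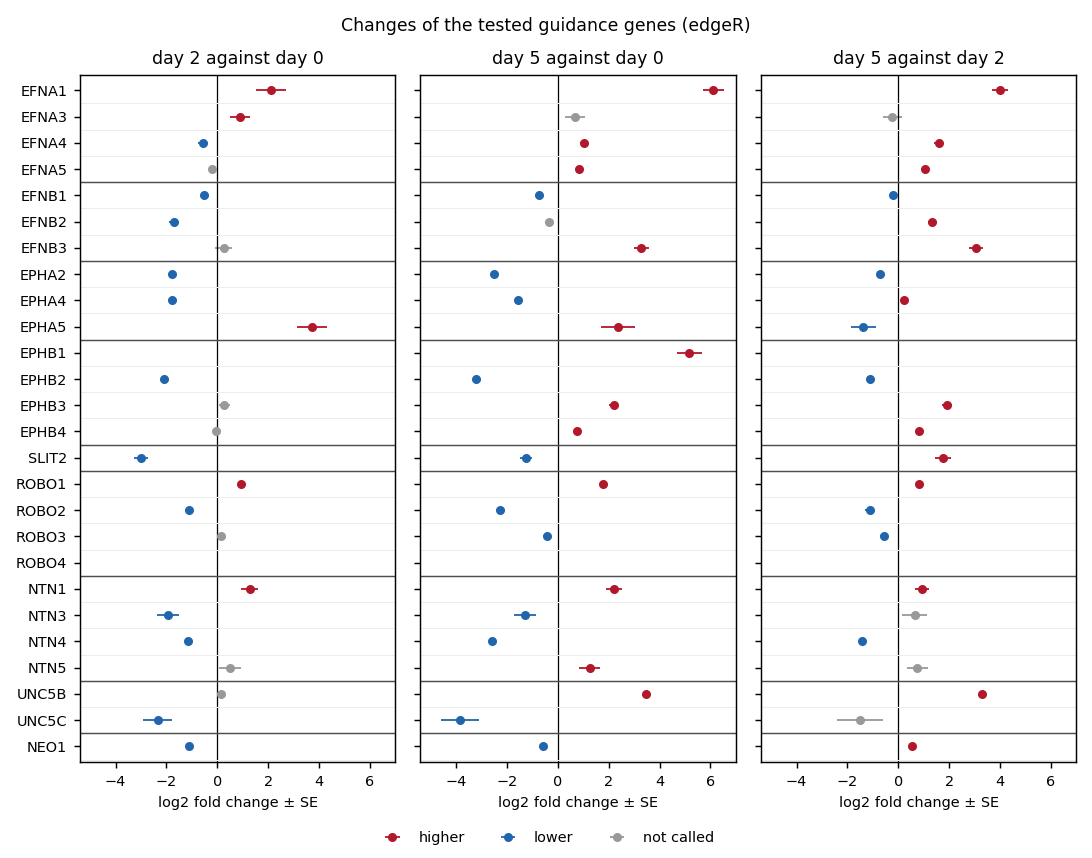
Log2 fold change with its standard error (bars) of each tested guidance gene in the 3 comparisons, red where called higher, blue where called lower and grey where not called by edgeR. EPHB1 is drawn only for day 5 against day 0 and ROBO4 not at all, because a day held 3 counts or fewer; UNC5B and EFNB3 lie near 0 on day 2 and above 3 on the log2 scale on day 5 against day 0.

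Other genes of these pathways were taken from a list of 91 adaptors, kinases, regulators of small GTPases, actin proteins, proteases and further ligands and receptors, of which 77 were tested. On day 2 against day 0, 36 rose and 31 fell, with a median of 0.07, and with library totals 26 were higher and 37 lower, so the balance of calls depended on the scaling. On day 5 against day 0, 23 rose and 44 fell (median -0.27), and on day 5 against day 2, 18 rose and 43 fell (median -0.27), with library totals giving 18 and 51, and 18 and 43. Over all tested genes the shares were 33.4% higher and 33.4% lower on day 2, and 35.8% and 34.1% on day 5, each against day 0. For day 5 against day 2 they were 32.1% and 33.7%. The counts of the groups below stand beside the shares against day 0. The GTPases and actin proteins, which carry guidance signals to the cytoskeleton, had 4 of 13 higher and 7 lower on day 2 and 2 higher and 10 lower on day 5 against day 0. Among them CAP1, a partner of actin turnover, went from 526 and 524 CPM on day 0 to 419.9 and 432 CPM on day 2 and 173 and 176 CPM on day 5 (log2 fold change -1.59 ± 0.03 on day 5 against day 0, edgeR adjusted p = 1.6e-18). MYO10, a filopodial myosin that carries DCC and neogenin, had 231 and 236, 227 and 225, and 68.9 and 67.7 CPM, so its drop came after day 2 (-1.73 ± 0.04, edgeR adjusted p = 5.2e-17). CHN1, a Rac-inactivating protein downstream of EPHA4 that the list holds among the regulators of small GTPases, also dropped after day 2, with 132 and 131, 138 and 138, and 22.4 and 19.4 CPM (-2.73 ± 0.06, edgeR adjusted p = 5.4e-17).

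The adaptors had 8 of 13 higher and 3 lower on day 2, beside 33.4% of all tested genes in each direction, and 1 higher and 10 lower on day 5 against day 0, beside 35.8% and 34.1%. PDZRN3, which holds PDZ domains and binds ephrin-B, peaked on day 2 with 135 and 137 CPM between 69.9 and 71.2 CPM on day 0 and 37.8 and 37.2 CPM on day 5. Of the kinases, 7 of 13 rose and 6 fell on day 2, and 5 rose and 7 fell on day 5 against day 0. ROCK1, an effector of RhoA in growth cone collapse, had 31.5 and 35 CPM on day 0, 118 and 110.5 CPM on day 2 (1.78 ± 0.06, edgeR adjusted p = 2.7e-14) and 54.1 and 50.8 CPM on day 5. ABL1, a kinase that acts with Robo receptors, rose on each later day, from 214 and 224 to 284 and 291 and then 478 and 489 CPM. FYN, a Src family kinase of Eph and netrin signalling, had 24.4 and 26.9, 30.6 and 30.2, and 84 and 85.3 CPM, with most of its rise after day 2 (1.48 ± 0.06, edgeR adjusted p = 4.9e-13).

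Regulators of small GTPases had 6 of 16 higher and 7 lower on day 2 (33.4% each way over all tested genes), and 5 higher and 9 lower on day 5 against day 0 (35.8% and 34.1% over all). Genes of cleavage and turnover had 8 of 10 higher and 2 lower on day 2, and 5 higher and 4 lower on day 5. MMP2, a gelatinase, went from 1330.2 and 1372 CPM to 2248 and 2272 and then 2484 and 2515 CPM (0.89 ± 0.02 on day 5 against day 0, edgeR adjusted p = 1.3e-17). Among further ligands, receptors and proteoglycans 3 of 12 rose and 6 fell on day 2, and 5 rose and 4 fell on day 5. RGMB, a repulsive guidance molecule that binds neogenin, had 165 and 168 CPM on day 0, 61.8 and 58.4 CPM on day 2 and 57 and 67.3 CPM on day 5 (-1.47 ± 0.05 on day 2, edgeR adjusted p = 1.5e-13). DAG1, the precursor of dystroglycan, which binds Slit, fell from 190.2 and 183 to 65.4 and 61.4 CPM and had 95.7 and 97.8 CPM on day 5. Of the syndecans, heparan sulfate proteoglycans, SDC3 had 369.8 and 376 CPM on day 0, 241 and 240.1 CPM on day 2 and 248 and 256 CPM on day 5. SDC1 was at 35.9 and 34.6, 35.4 and 35.8, and 121 and 121 CPM, a rise after day 2 of 1.77 ± 0.05 on the log2 scale (edgeR adjusted p = 2.9e-15).

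**Figure D4:**
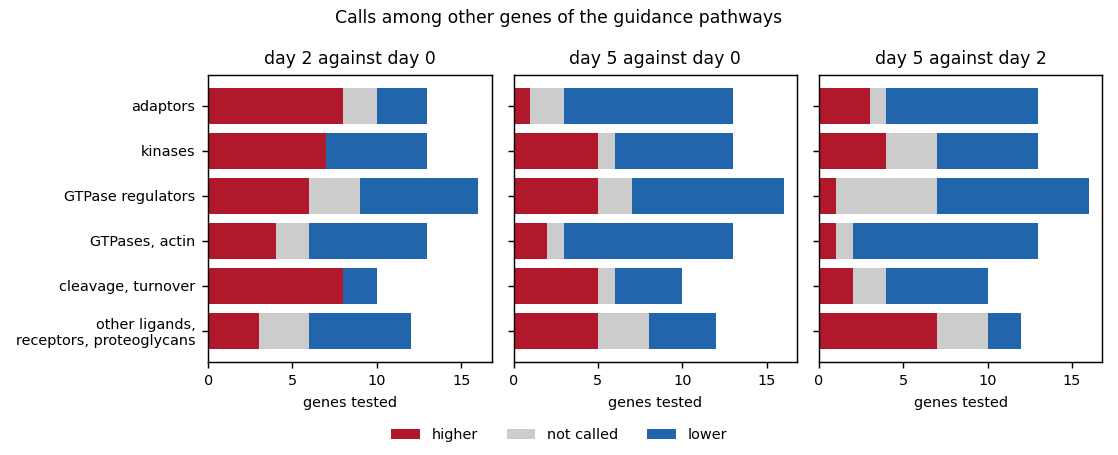
Number of tested genes called higher (red), not called (grey) and called lower (blue) in each group of the pathway list, for the 3 comparisons. The horizontal axis counts genes. On day 5 against day 0, 10 of 13 GTPases and actin proteins and 10 of 13 adaptors were lower, beside 34.1% of all tested genes. Cleavage and turnover had 5 higher and 4 lower there, and the further ligands, receptors and proteoglycans also had 5 and 4.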

How the data were processed

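The authors deposited expected counts, unscaled estimates with some decimals, for 60843 genes (per the file headers and the values). Reads were processed against GRCh38 according to the submitters' processing notes, and libraries were made with an Illumina TruSeq kit from TRIzol-extracted, DNase-treated RNA, per the labels' protocols. Aligner, counting tool, annotation and strand setting: not given in the sources used here. Left out were the 172 genes without a name, 0.0356 to 0.0475% of a library's counts, and the deposited means per day. The length column of the deposited table is another unit, bases of gene model, and served for levels per kb.

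Counts were rounded (87.2% were whole within 1e-09) and fitted by day over all 6 libraries with edgeR 4.0.16 under R 4.3.3, using filterByExpr (minimum count 10, minimum total 15), TMM factors, quasi-likelihood F tests (residual degrees of freedom 3) and Benjamini-Hochberg adjustment. All p-values are two-sided, and the standard error is the log2 fold change divided by the square root of F. Changes above 2-fold were tested with glmTreat, a test added after seeing the data. In each day the 2 libraries differed by more than counting noise (chi-square 2.31 to 2.43 per degree of freedom). A symbol of several genes was read from the most abundant. Positions are from GENCODE release 29 on GRCh38. Guidance genes were named when tested and at 1 CPM or more on some day, the rest by counts, and from the pathway list the 3 genes of lowest adjusted p in each direction of a comparison. The members, lists and tests were chosen with earlier results of these data known. Alternatives were DESeq2 1.42.0, RLE factors, library totals, no count filter, a filter of 1 CPM in at least 4 libraries, fits of the compared days, the replicate number as a block, and leaving out each library. Simulated counts, with known changes in a small set of genes on day 2 and the same spread for all genes, were run through the day 2 against day 0 test. That setting held far fewer changes than these data, so it does not test the scaling or the other comparisons.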

Additional observations from a re-analysis of the deposited data

How the results depend on the processing

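Leaving out each library in turn gave 9723 to 11116, 10298 to 11489 and 9719 to 10691 genes called among all tested genes on day 2 over day 0, day 5 over day 0 and day 5 over day 2. The guidance genes called higher then numbered 4 to 5, 10 to 12 and 13 to 14, and those called lower 13 to 15, 9 to 13 and 5 to 7. With a filter of 1 CPM in at least 4 libraries, which tests fewer genes, 3 guidance genes were higher and 10 lower on day 2 over day 0. On day 5 over day 0, 7 were higher and 9 lower. Among all genes 10042 and 10217 were called in these comparisons. No named gene that this filter kept changed its call, so the smaller numbers came from guidance genes it left out. Tested against a 2-fold change, 2045, 3278 and 2345 genes of all were called, 1 and 9 guidance genes were higher and lower on day 2 over day 0, 8 and 7 on day 5 over day 0, and 7 and 1 on day 5 over day 2. In the pathway list these were 4 and 6, 7 and 9, and 5 and 14. Over all tested genes the shares higher and lower were 6.99% and 5.54%, 9.74% and 10.3%, and 6.41% and 7.96%. No called direction of a named gene was reversed by an alternative. The differences between a day's replicates were hardly correlated between days (-0.00503 to 0.00269), a measure that cannot exclude a pairing of small effect by replicate number. With the replicate block 4 guidance genes were higher and 14 lower on day 2 over day 0. There were 12 and 12 on day 5 over day 0, and 14 and 7 on day 5 over day 2. Among all genes 10806, 11297 and 10642 were called with this block. EFNA3 on day 2 then lost its call (edgeR adjusted p = 0.0744). Counts below about 10 in a library, as for EPHB1, ROBO4, UNC5C and EFNA1 on some days, limit the precision of their fold changes most.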
